A study of Mus musculus with 5 samples.

Results

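The mitochondrial calcium uniporter complex is the channel through which calcium crosses the inner mitochondrial membrane into the matrix. Its members were taken by gene symbol, and all 5 on the list, Mcu, Ccdc109b, Smdt1, Micu2 and Micu3, were found among the 14715 genes measured. Ccdc109b is the older symbol of Mcub. The members and the rule for the neuron classes were chosen with results of these data known, so the values below describe these cells and carry no test.

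Calcium enters the matrix along the membrane potential, through a pore built from MCU subunits. MCUb is a paralog of MCU that can take its place in the pore and lowers the current, EMRE (from Smdt1) links the pore to its gatekeepers, and gatekeepers such as MICU2 and MICU3 sense cytosolic calcium and help set when the pore opens. In neurons matrix calcium speeds ATP production during firing, and auditory neurons fire at high rates.

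RNA was counted in single spiral ganglion neurons, the nerve cells that link the hair cells of the cochlea with the brainstem, taken from mice of both sexes aged 30 to 33 days. The CKO group (bhlhb5-Cre/+; Ai14/+; Runx1F/F, 3 samples, 884 neurons) was set against the control group (bhlhb5-Cre/+; Ai14/+, 2 samples, 1070 neurons) to ask how loss of the transcription factor Runx1 bears on the diversity of auditory neurons. All animals of both groups thus carried the Cre transgene and the tdTomato reporter of Ai14, deletion depends on where and when bhlhb5-Cre is active, and sorting for tdTomato kept only cells in which Cre had acted. Each cell comes with a genotype but with no animal or library, so each genotype is 1 pool without replicates and no p-value was computed.

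Levels are mean unique molecular identifiers (UMIs, one per captured RNA molecule) per 10000 UMIs of a cell. A ratio of UMI rates is set with its exact 95% interval, which covers counting error only, and log2 values compare means after adding 0.1. Along the columns the barcodes restart their alphabetical order and form 5 stretches. Stretches 1, 3 and 4 hold 355, 372 and 157 CKO cells, and stretches 2 and 5 hold 482 and 588 control cells. Stretches are shown as the nearest view of spread between libraries, although nothing in the sources ties them to libraries. Each level is a share of a cell's UMIs and does not give molecules per cell. A lower level can mean fewer RNA molecules of the gene, more RNA of other genes or, where classes are pooled, fewer cells of a class.

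The median cell held 44120.5 UMIs in CKO and 38085 in control, within a range of 10379 to 100856. Runx1 RNA averaged 1.68 in CKO neurons and 1.23 in control neurons, and, as 3′ ends are read and the deleted stretch of the gene is not given, these counts do not check the deletion. Glial RNA at 5 or more UMIs per 10000 was present in 55.8% of CKO cells and 61.2% of control cells, and the summed glial level lay between 18.0 and 28.0 in every class. Macrophage RNA summed to at most 0.0764 in any class over the 3 of 7 listed genes in the matrix.

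Neurons were put into 4 classes by the rule. A cell with Dupd1 at 1 or more was type II, which innervates outer hair cells. Of the rest, which are type I and innervate inner hair cells, a cell with Lypd1 at 3 or more was type Ic, then a cell with Calb2 at 150 or more was type Ia, and all others were type Ib. This gave 152 type II, 132 type Ic, 216 type Ib and 384 type Ia cells in CKO, against 119, 314, 395 and 242 in control. Type Ic made up 14.9% of CKO cells and 29.3% of control cells, with 13.5%, 7.53% and 35.7% in CKO stretches 1, 3 and 4, against 38.4% and 21.9% in control stretches 2 and 5.

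Most markers that the rule did not use were highest in the class they name. Th averaged 3.98 in CKO and 5.09 in control type II neurons, and Ngfr 8.06 in CKO and 8.95 in control. Pou4f1 averaged 1.03 in CKO and 1.17 in control type Ic neurons, Ttn 0.792 in CKO and 1.27 in control type Ib neurons, and B3gat1 2.11 in CKO and 2.02 in control type Ia neurons. Each of these 5 was highest there among the 4 classes of either genotype. The exceptions were Etv4 and Smad3, listed for type II and at or near 0 there, and Rxrg and Pcdh20, listed for type Ia. Rxrg averaged 0.466 in CKO and 0.507 in control type Ia neurons but 0.628 in CKO and 0.565 in control type II neurons. Pcdh20 averaged 0.334 in CKO and 0.438 in control type Ia neurons but 2.0 in CKO and 2.25 in control type II neurons. Lrrc52, listed for type Ib, was highest there but low, at 0.0436 in CKO and 0.0749 in control. Calb1, listed for type Ib, was 1.46 in type Ic, 2.56 in type Ib and 1.90 in type Ia of CKO, so all CKO type I classes held it, against 0.0894, 1.31 and 0.283 in the same classes of control.

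The sequences before the starts of both pore genes are shown because Mcu was read in every class, whereas its inhibitory paralog was read mostly in one. They are the 250 bases before the start of each gene, from RefSeq (GRCm38.p6), 5′ to 3′ on the minus strand, at chr10:59616693-59616942 for Mcu and chr3:129970207-129970456 for Ccdc109b, and capitals mark CG pairs.
Mcu: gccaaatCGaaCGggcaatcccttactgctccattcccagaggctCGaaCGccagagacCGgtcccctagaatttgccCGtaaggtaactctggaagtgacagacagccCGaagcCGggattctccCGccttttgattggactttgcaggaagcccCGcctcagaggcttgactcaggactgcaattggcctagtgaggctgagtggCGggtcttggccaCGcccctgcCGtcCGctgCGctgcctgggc
Ccdc109b: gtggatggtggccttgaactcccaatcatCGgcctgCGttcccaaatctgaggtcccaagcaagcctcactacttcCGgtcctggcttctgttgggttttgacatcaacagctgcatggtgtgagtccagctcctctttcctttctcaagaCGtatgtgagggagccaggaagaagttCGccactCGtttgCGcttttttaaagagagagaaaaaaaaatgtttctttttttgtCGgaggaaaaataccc
The Mcu window held 15 CG pairs and the Ccdc109b window 8, where the median over 32851 such windows was 6. As many or more were found in 27.3% of windows for Mcu and in 43.0% for Ccdc109b. The Micu2 window held 14 and the Smdt1 window 23, so 4 of 5 members had an entry, and Micu3 is named only. Neither spelling of a RUNX motif searched, TGTGGT or TGCGGT on both strands, occurred in any of the 4 windows, while 18.6% of all windows held one. A CRE motif, TGACGTCA, which reads the same on both strands, occurred once in the Smdt1 window (chr15:82345796-82346045), 146 bases before the start that RefSeq gives, and in 1.55% of all windows. That window lies inside the longer Smdt1 gene of GENCODE described further on, whose first base is upstream of the RefSeq start.

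Mcu, the gene of the pore subunit, is a minus-strand gene of chromosome 10, from 59446984 to 59616692 (GRCm38, the build named mm10 in the submitters' processing notes). It was read at a low level in every class, and at the lowest level in type II neurons. Its mean was 0.164 in CKO neurons, with 0.177, 0.154 and 0.162 in stretches 1, 3 and 4, and 0.178 in control neurons, with 0.170 and 0.184 in stretches 2 and 5. The stretches of both genotypes overlapped. The ratio of UMI rates was 0.931 (0.837 to 1.04, from 640 and 747 UMIs, log2 -0.07). In CKO the level was 0.108 in type II, 0.211 in type Ic, 0.186 in type Ib and 0.158 in type Ia. In control it was 0.116 in type II, 0.206 in type Ic, 0.164 in type Ib and 0.194 in type Ia. The type I classes thus lay close together, with their order differing between genotypes. Within type Ia the ratio of CKO over control was 0.829 (0.695 to 0.989), with stretch means of 0.146, 0.160 and 0.248 in CKO and 0.219 and 0.187 in control, so the highest value was that of a CKO stretch. Within types II, Ic and Ib the ratios were 1.04, 1.01 and 1.13, and each interval included 1. Type II over type I, the ratio was 0.631 (0.459 to 0.851) in CKO and 0.570 (0.389 to 0.808) in control. The type II values rest on 47 CKO UMIs and 33 control UMIs, and their stretches ranged from 0.0631 to 0.127 in CKO and from 0.0811 to 0.170 in control, so control stretch 5 lay above the type Ib mean of control.

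**Figure D1:**
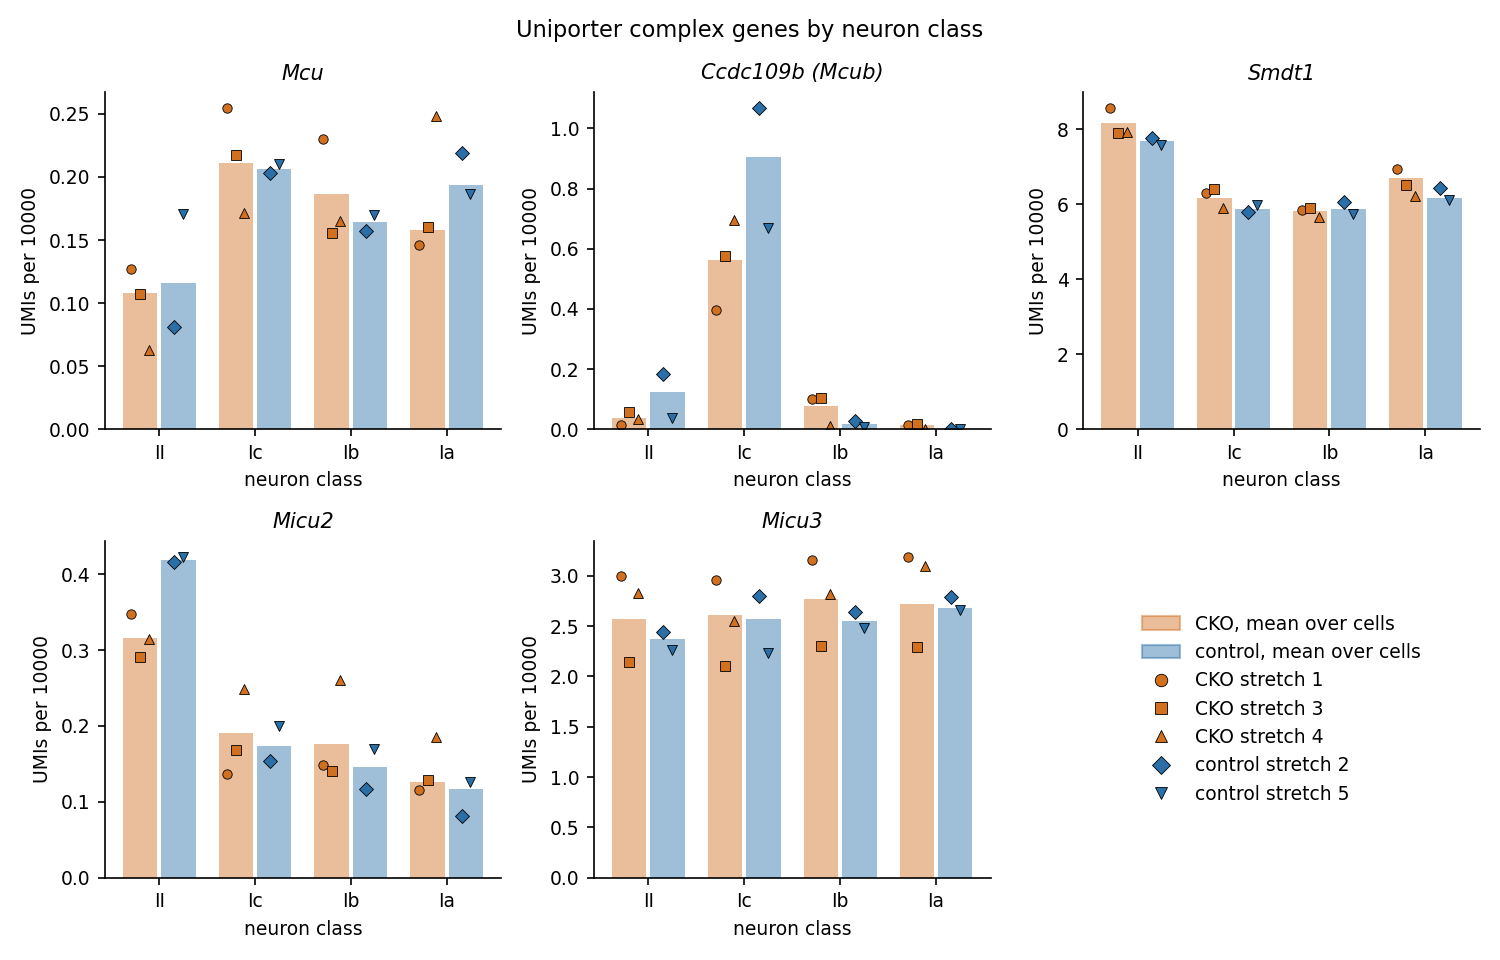
Mean level of each uniporter gene (UMIs per 10000 UMIs of a cell, vertical axis from 0) in type II, Ic, Ib and Ia neurons, with CKO in orange left of control in blue. Bars are means over all cells of a class and points are the means of single column stretches, so that Ccdc109b is highest in type Ic (0.561 in CKO, 0.904 in control), Micu2 and Smdt1 are highest in type II, and Micu3 varies more between stretches than between classes.

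Ccdc109b, the gene of the inhibitory pore subunit MCUb, is a minus-strand gene of chromosome 3, from 129914960 to 129970206. Its RNA was found mainly in type Ic neurons, which carry the Lypd1 marker. Type Ic held 72.4% of the 457 Ccdc109b UMIs of CKO and 94.6% of the 1109 of control, while making up 14.9% of CKO and 29.3% of control cells. Over all neurons the mean was 0.116 in CKO and 0.285 in control. The stretch means were 0.0860, 0.0846 and 0.257 in CKO and 0.447 and 0.153 in control, so CKO stretch 4 lay above control stretch 5 and the genotypes overlapped. The ratio of UMI rates was 0.448 (0.401 to 0.50, log2 -0.84). CKO stretch 4 also stood apart from CKO stretches 1 and 3 in Runx1 RNA of type Ia neurons. That level was 2.04, 1.47 and 0.0816 in CKO stretches 1, 3 and 4, the last from 19 cells, against 0.271 and 0.209 in control stretches 2 and 5. What sets stretch 4 apart was not tested.

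Within type Ic the Ccdc109b level was also lower in CKO. It was 0.561 in CKO, with 0.398, 0.574 and 0.696 in stretches 1, 3 and 4, and 0.904 in control, with 1.07 and 0.669 in stretches 2 and 5. CKO stretch 4 again exceeded control stretch 5, so these values overlap too. Type Ic neurons also differed between genotypes in class markers: B3gat1 was 1.04 in CKO and 0.0820 in control, Calb2 was 26.6 in CKO and 9.88 in control, and Lypd1 itself was 28.5 in CKO and 35.8 in control. Pou4f1 and Grm8 lay closer, with ratios of CKO over control of 0.868 (0.786 to 0.957) and 1.03 (0.923 to 1.15). The part of these differences in the Ccdc109b level was not tested. The ratio was 0.640 (0.563 to 0.724, log2 -0.60), and without control stretch 2 the log2 value was -0.22. After each cell was thinned to 10000 UMIs, 38.6% of CKO type Ic cells (30.3% to 47.5%) and 56.7% of control type Ic cells (51.0% to 62.2%) held a Ccdc109b UMI. Before thinning these shares were 75.0% in CKO and 86.0% in control, at median depths of 47494 and 37895.5 UMIs. As a background, type Ia neurons gave thinned shares of 1.56% in CKO and 0.413% in control, at median depths of 50506 and 48726 UMIs. The control share rests on 1 cell of 242. Type Ib gave 6.02% in CKO and 1.01% in control.

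The other type I classes showed the opposite order. In type Ib the level was 0.0763 in CKO (82 UMIs) and 0.0168 in control (23 UMIs), a ratio of 6.15 (3.83 to 10.2). In type Ia it was 0.0153 in CKO (27 UMIs) and 0.000678 in control (1 UMI), a ratio of 16.1 (2.65 to 658). By stretch, type Ib gave 0.0992, 0.103 and 0.0107 in CKO stretches 1, 3 and 4, against 0.0288 and 0.00734 in control stretches 2 and 5. Type Ia gave 0.0146, 0.0175 and 0 in CKO, against 0 and 0.000863 in control. In both classes the higher level was that of CKO stretches 1 and 3, and CKO stretch 4 lay among the control stretches in type Ib and at 0 in type Ia. The step between classes was accordingly smaller in CKO. Ccdc109b in type Ic over type Ib was 5.94-fold (4.65 to 7.66) in CKO and 57.1-fold (37.8 to 90.4) in control, and in type Ic over type Ia it was 40.4-fold (27.3 to 62.3) in CKO and 1016-fold (182 to 40180.3) in control, the last against a single UMI.

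Type II neurons held less Ccdc109b than type Ic. In control their mean lay above types Ib and Ia, and in CKO it lay between them. The level was 0.0386 in CKO (17 UMIs, with 0.0154, 0.0591 and 0.0339 in stretches 1, 3 and 4) and 0.125 in control (36 UMIs, with 0.183 and 0.0364 in stretches 2 and 5). Control stretch 5 lay within the CKO stretches, and 31 of the 36 control UMIs came from stretch 2. Of the type II cells with a Ccdc109b UMI, 16 of 16 in CKO and 27 of 30 in control held no Lypd1 UMI. The summed macrophage level in type II was 0.0764 in CKO and 0.0641 in control, against at most 0.00241 in the type I classes, and its part in these values was not tested.

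The level of Ccdc109b followed that of Lypd1 within type I neurons as well as across the threshold. In cells with no Lypd1 UMI it was 0.0257 in CKO (540 cells, 65 UMIs) and 0.00257 in control (529 cells, 5 UMIs). At Lypd1 of 3 to 10 the level was 0.365 in CKO (31 cells) and 0.306 in control (19 cells), where the intervals of both overlapped widely. At 10 to 30 it was 0.429 in CKO (37 cells) and 0.883 in control (63 cells), and at 30 or more 0.733 in CKO (64 cells) and 0.958 in control (232 cells). At a Lypd1 of 10 or more the pooled CKO cells thus held less Ccdc109b, and with no Lypd1 UMI they held more. These bins pool stretches, and the top bin has no upper end. By class, Ccdc109b of CKO stretch 4 lay above that of control stretch 5 in type Ic, at 0.696 and 0.669. In type Ib Ccdc109b was 0.0992, 0.103 and 0.0107 in CKO stretches 1, 3 and 4. Just outside the threshold, at Lypd1 of 1 to 3, the mean over both genotypes was 0.206 (33 cells), and just inside it, at 3 to 10, it was 0.343 (50 cells). For Calb2 the means were 0.0638 at 100 to 150 (140 cells) and 0.0312 at 150 to 200 (157 cells), and for Dupd1 they were 0.198 above 0 and under 1 (13 cells) and 0.0499 at 1 to 3 (16 cells).

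**Figure D2:**
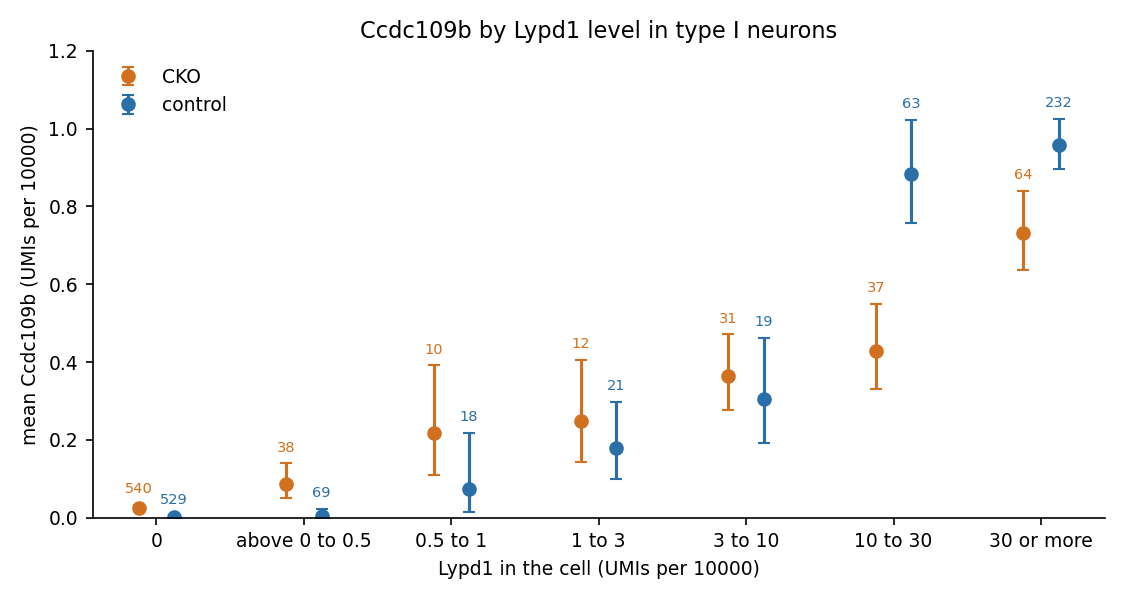
Mean Ccdc109b (UMIs per 10000, vertical axis) in type I neurons grouped by their own Lypd1 level (UMIs per 10000, horizontal axis), CKO in orange left of control in blue, with exact 95% Poisson intervals for counting error and the number of cells above each point. With stretches pooled, CKO lay above control at a Lypd1 of 0 (0.0257 and 0.00257) and below it at 10 to 30 (0.429 and 0.883).

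A set of CKO neurons held Ccdc109b without reaching the Lypd1 threshold. This set, type I cells under the threshold with 2 or more Ccdc109b UMIs, was chosen after the values were seen. It counted 26 of 600 CKO cells (4.33%, exact interval 2.85% to 6.29%) and 5 of 637 control cells (0.785%, 0.255% to 1.82%). By stretch it was 12 of 249, 13 of 273 and 1 of 78 in CKO and 3 of 225 and 2 of 412 in control. Of the 26 CKO cells, 22 were type Ib and 4 type Ia, and 15 held no Lypd1 UMI. Their median Runx1 was 2.51, Pou4f1 0.858 and Grm8 0.389, against 2.25, 0 and 0 in the 185 CKO type Ib cells with no Ccdc109b UMI. Their Calb2, on which types Ia and Ib were parted, had a median of 119 and ran between 18.7 and 179. Their median total was 48880.5 UMIs, against 38682 in those other CKO type Ib cells. Picking by 2 or more Ccdc109b UMIs against none favours deeper cells, and medians of 0 also depend on depth. No caller of doublets was run, and the parts of depth and of doublets were not tested. The 5 control cells had a median Calb2 of 29.1 and Lypd1 of 1.66. Their median Pou4f1 was 0.291 and Grm8 0, against 0 for both genes in the 380 control type Ib cells with no Ccdc109b UMI.

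The difference over all neurons was larger than that made by either the class means or the class shares alone. With the CKO class means at the control shares of cells the mean of Ccdc109b would be 0.201, and with the control class means at the CKO shares 0.161, against the measured 0.116 in CKO and 0.285 in control. For the other 4 members both exchanges gave log2 values against control between -0.01 and 0.06.

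Smdt1, the gene of EMRE, is a plus-strand gene of chromosome 15, from 82338959 to 82349091. Its RNA was plentiful in every class and, as a share of a cell's UMIs, highest in type II. These are the GENCODE positions, which begin upstream of the RefSeq start used for the promoter window. The 5′ part of the gene overlaps Pheta2 on the same strand up to 82345743. The symbol Pheta2 is not in the matrix, and whether that gene is there under an older symbol was not checked. The mean was 6.65 in CKO neurons, with 6.87, 6.66 and 6.15 in stretches 1, 3 and 4, and 6.15 in control neurons, with 6.25 and 6.07 in stretches 2 and 5. CKO stretch 4 lay between both control stretches. The ratio was 1.09 (1.07 to 1.11, log2 0.11), smaller than the spread among the CKO stretches. In CKO the level was 8.17 in type II, 6.16 in type Ic, 5.82 in type Ib and 6.69 in type Ia. In control it was 7.69 in type II, 5.87 in type Ic, 5.89 in type Ib and 6.18 in type Ia. Type II over type I, the ratio was 1.25 (1.21 to 1.30) in CKO and 1.27 (1.22 to 1.33) in control. Every type II stretch, with 8.57, 7.92 and 7.94 in CKO and 7.77 and 7.57 in control, lay above every type I stretch of the same genotype, which reached 6.54 in CKO and 5.98 in control. Type II cells held fewer UMIs in total, and counted per cell the order of Smdt1 was reversed. CKO type II gave 3407 Smdt1 UMIs in 152 cells and CKO type I 21654 in 732. Control type II gave 2336 in 119 cells and control type I 22658 in 951.

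Micu2, the gene of a gatekeeper of the pore, is a minus-strand gene of chromosome 14, from 57916261 to 57999262. It was highest in type II neurons of both genotypes and close to equal between genotypes. Its mean was 0.181 in CKO neurons, with 0.164, 0.166 and 0.255 in stretches 1, 3 and 4, and 0.178 in control neurons, with 0.172 and 0.183 in stretches 2 and 5. CKO stretch 4 stood above the other 4 stretches. The ratio was 0.989 (0.887 to 1.10, log2 0.02). In type II the level was 0.316 in CKO, with 0.347, 0.291 and 0.315 by stretch, and 0.419 in control, with 0.416 and 0.423. All CKO stretches lay below both control stretches there, but the ratio of 0.772 (0.600 to 0.994) rests on 132 and 125 UMIs.

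The order of Micu2 among classes was the same in both genotypes. In CKO it was 0.191 in type Ic, 0.177 in type Ib and 0.126 in type Ia. In control it was 0.173 in type Ic, 0.147 in type Ib and 0.116 in type Ia. Type II over type I, the ratio was 2.12 (1.73 to 2.57, log2 0.72) in CKO and 2.72 (2.22 to 3.31, log2 1.07) in control. Type Ic over type Ia, it was 1.40 (1.10 to 1.76) in CKO and 1.51 (1.21 to 1.89) in control, and the interval of the step from Ib to Ic included 1 in both genotypes. Thinned to 10000 UMIs, 25.0% of CKO type II cells and 33.6% of control type II cells held a Micu2 UMI, against 10.9% and 9.09% of type Ia cells in CKO and control. Before thinning the shares were 59.2% and 68.1% in type II of CKO and control, and 45.6% and 38.8% in type Ia.

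Since Micu2 was high and Mcu low in type II, their relation differed most there. The number of Micu2 UMIs per Mcu UMI was 2.81 in CKO type II (2.0 to 4.01) and 3.79 in control type II (2.56 to 5.74). In the type I classes it lay between 0.809 and 0.883 in CKO and between 0.604 and 0.888 in control. Such ratios set classes against each other and not the abundance of both genes, as capture of each 3′ end may differ. For Ccdc109b per Mcu UMI the values were 0.362 in type II, 2.76 in type Ic, 0.50 in type Ib and 0.0874 in type Ia of CKO, and 1.09, 4.35, 0.0916 and 0.0045 in the same classes of control.

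Micu3, the gatekeeper known for its expression in the nervous system, is a plus-strand gene of chromosome 8, from 40307458 to 40386308. Fgf20, on the opposite strand, overlaps its first exon and is not among the genes of the matrix. Micu3 was read in nearly every neuron, and differed little between classes or genotypes. Its mean was 2.69 in CKO neurons, with 3.12, 2.25 and 2.76 in stretches 1, 3 and 4, and 2.57 in control neurons, with 2.69 and 2.46 in stretches 2 and 5. The CKO stretches held both the highest and the lowest value. The ratio was 1.06 (1.03 to 1.09, log2 0.07), and the log2 value was -0.09 without stretch 1 and 0.22 without stretch 3. In CKO the level was 2.57 in type II, 2.61 in type Ic, 2.77 in type Ib and 2.72 in type Ia. In control it was 2.37 in type II, 2.57 in type Ic, 2.55 in type Ib and 2.68 in type Ia. Averaged over stretches, the highest class was 1.11 times the lowest, whereas averaged over classes the highest stretch was 1.39 times the lowest. For Ccdc109b these values were 103 between classes and 2.43 between stretches.

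**Figure D3:**
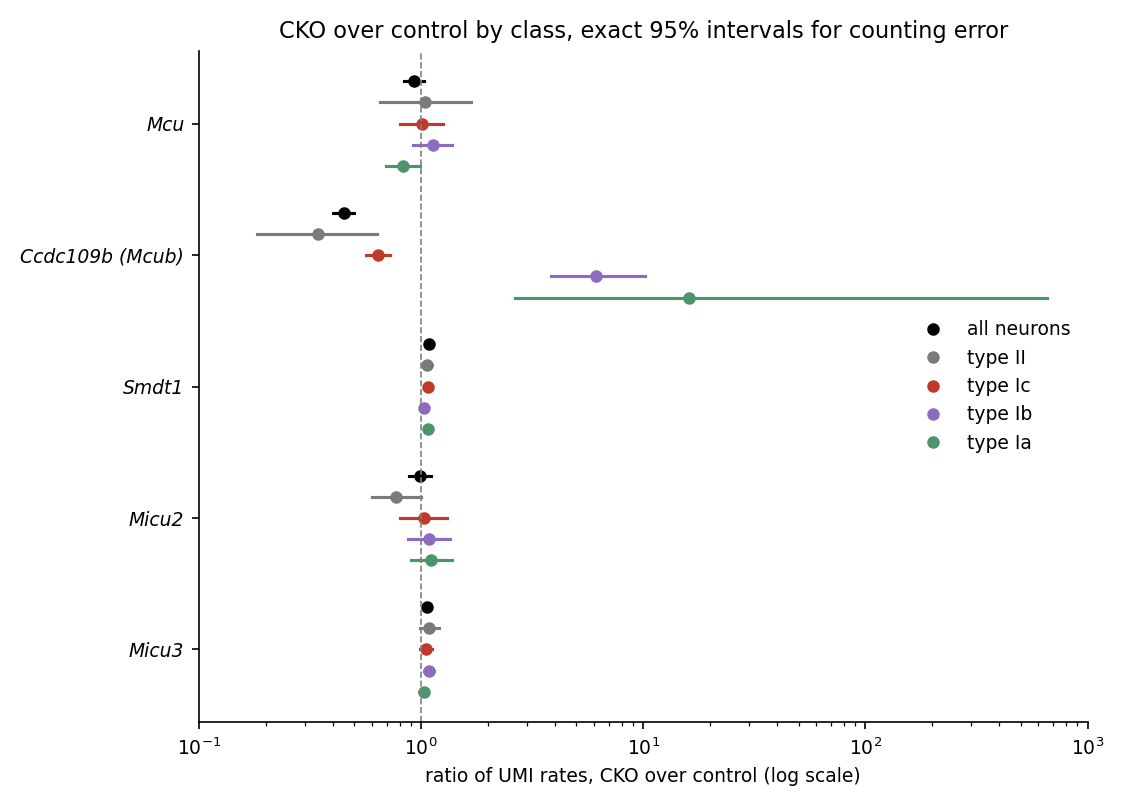
Ratio of UMI rates, CKO over control (horizontal log axis), for each uniporter gene in all neurons and in type II, Ic, Ib and Ia, with points at the ratio and lines at the exact 95% interval for counting error. Ccdc109b lay below 1 in all neurons (0.448), type II (0.345) and type Ic (0.640) and above 1 in type Ib (6.15) and type Ia (16.1), while the ratios of the other 4 genes lay between 0.772 and 1.13.

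Counts of members were set against all genes at a mean of 0.5 or more in either group. Over all neurons 2 members could be counted, Micu3 and Smdt1, and 0 differed by 1.5-fold between genotypes, where 0.529% of 3784 genes were higher in CKO and 0.502% were lower. Within type Ic 3 members could be counted. Ccdc109b, which reached that mean in both genotypes, was at least 1.5-fold lower in CKO, as were 0.39% of 3845 genes, and Micu3 and Smdt1 did not differ by that much. In type II over type I, Micu3 and Smdt1 could be counted in both genotypes and 0 differed by 1.5-fold, where 22.5% of genes were higher and 22.9% lower in CKO, and 21.7% higher and 23.4% lower in control. Mcu and Micu2 stayed under the mean in every class, and between classes Ccdc109b passed it only through type Ic, where it is high, so these differences were not counted and are given by their values alone.

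Genes whose levels ran most like those of the members were sought over 20 groups of cells, each a class within a stretch, by Pearson's r of log2 levels among 3637 genes. The groups share stretches and depth, so r is a description. For Ccdc109b they were Lypd1 (r = 0.94), on which the classes were set, Dnm3 (0.80) and Zcchc17 (0.78). Dnm3, a dynamin, averaged 3.74 in type II, 6.68 in type Ic, 4.52 in type Ib and 3.09 in type Ia of CKO, and 3.71, 6.05, 3.89 and 2.66 in the same classes of control. For Smdt1 they were Txndc17, Atp6v1f and Ubxn1 (0.95 each), all highest in type II. For Micu3 they were Snx6 (0.87), Csnk1a1 (0.86) and Rab14 (0.82).

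Of the partners and regulators of the uniporter, 7 of 8 listed genes were in the matrix and 5 reached a mean of 0.5 over all neurons. None of these 5 differed by 1.5-fold between genotypes, and their median log2 value was 0.07, where that of all genes was -0.02. Afg3l2 and Spg7, subunits of the protease that degrades unassembled EMRE, had ratios of 1.11 (1.05 to 1.17) and 1.05 (0.990 to 1.12). Yme1l1, a protease of the inner membrane, had 1.03, Phb2, a prohibitin, 1.07, Mcur1, a regulator of the uniporter, 1.02, and Slc25a23, a calcium-binding carrier, 0.854. Of the 4 genes of calcium exchange across the inner membrane, the 2 that reached the mean, Letm1 and Ghitm, had ratios of 0.977 and 0.992.

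Between type II and type I neurons, Ghitm, an inner membrane protein described as a calcium and proton exchanger, averaged 2.82 in type II and 7.95 in type I of CKO, a ratio of 0.368 (0.347 to 0.389). In control it averaged 2.68 in type II and 7.89 in type I, a ratio of 0.341 (0.317 to 0.365). Afg3l2 had ratios of 0.553 in CKO and 0.483 in control, and Yme1l1, on the other side, had 1.35 and 1.41. Of the partners measured, 2 of 5 in CKO and 1 of 4 in control were at least 1.5-fold lower, and none was higher. Shares of so few genes are not read against those of all genes.

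Most calcium-responsive enzymes and carriers of mitochondria stood lower in type II. Of the 15 listed, 11 of 11 that reached the mean in CKO and 11 of 12 in control were at least 1.5-fold lower, with a median log2 of -1.17 in CKO and -1.08 in control. Of the genes of oxidative phosphorylation 42 of 45 were lower in either genotype, with medians of -1.05 and -0.98 in CKO and control. Of all genes at that mean, 22.9% of 4251 in CKO and 23.4% of 4369 in control were at least 1.5-fold lower. Gpd2 and Slc25a24, of the first list, ran the other way. Gpd2, a dehydrogenase, was 16.3 times type I in CKO type II and 18.9 times in control, and Slc25a24, a carrier, was 18.1 times in CKO and 22.3 times in control, where its means were 0.0845 in CKO and 0.0932 in control type II neurons. Both were named after their values were seen. The median of all genes was 0.03 in CKO and 0.02 in control. Of the uniporter members, Smdt1 and Micu2 were higher in type II and Micu3 was close to equal, with log2 values of -0.08 in CKO and -0.12 in control. Mcu was lower in type II, at -0.41 in CKO and -0.40 in control, and so was Ccdc109b, at -0.74 and -0.85. For Ccdc109b the pooled type I level is mostly that of type Ic. Control type II, at 0.125, lay above types Ib (0.0168) and Ia (0.000678). CKO type II, at 0.0386, lay between types Ib (0.0763) and Ia (0.0153).

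**Figure D4:**
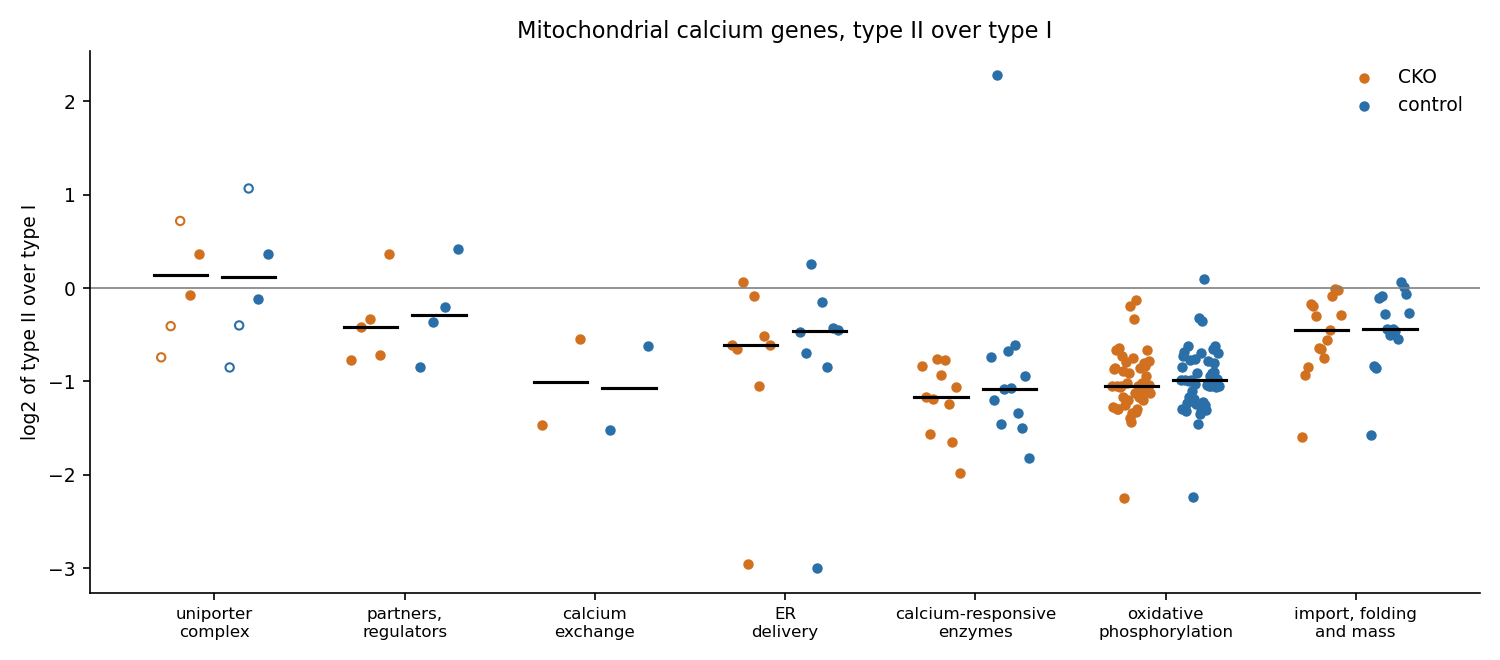
Log2 of type II over type I means (vertical axis, after adding 0.1) for genes of the uniporter complex and 6 other gene lists, CKO in orange left of control in blue. Each point is a gene, black lines are medians of genes at a mean of 0.5 or more, and open points are uniporter genes under that mean, so that the lists of calcium-responsive enzymes and oxidative phosphorylation lie near -1 while the uniporter genes lie on both sides of 0.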

How the data were processed

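The labels describe 3' single-cell libraries from the 10x Genomics kit, made from sorted cochlear cells of 3 CKO and 2 control samples. Cell Ranger, Seurat and the build mm10 are named, without versions, in the submitters' processing notes, and how cells or doublets were filtered is not given in the sources used here. The authors deposited 14715 genes by 1954 cells as natural log values, ln(1 + 100000 × UMI count / cell total), as settled from the values, since the exponentials minus 1 summed to 100000 in each cell. Dividing them out gave whole UMI counts for 100% of values above 0 (tolerance 0.01), and these recovered counts were used for rates and intervals. A deposited record gives each cell's genotype, and, with 1 barcode found under both, the join used column position.

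Rates were averaged over cells, and ratios of summed UMIs were given exact conditional 95% intervals. A gene was counted as differing at 1.5-fold and a mean of 0.5 or more in either group. No test was run, because each genotype is 1 pool. Intervals cover counting error only. No doublets were called or removed here. Thinned cells hold 10000 UMIs, and 0 cells were too shallow. The tools were numpy 2.4.6, scipy 1.17.1, pandas 2.3.3 and matplotlib 3.10.9 in Python 3.11.15, and the counting steps were tested on simulated data.

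The members, the class rule and all gene lists were chosen with earlier results of these data known. Named genes are all members of the complex, its partners and the exchange list (1 gene is not reported here), then up to 4 genes of each other list by difference between genotypes and 2 by type Ic over type Ia. Positions are those of GENCODE M21, with Ccdc109b matched as Mcub through the RefSeq synonyms. Alternatives changed the pseudocount, averaging, depth, glial RNA, class thresholds, minimum mean, fold and stretches used.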

Additional observations from a re-analysis of the deposited data

How the results depend on the processing

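No paired analysis was possible because cells carry a genotype and no sample, so same-numbered samples could not be joined. Ccdc109b over all neurons kept its direction, CKO below control, in all alternatives, with log2 values from -1.34 to -0.23 when single stretches were left out, against -0.84 with all. It was -1.23 at a pseudocount of 0.01, -0.20 at a pseudocount of 1 and -1.01 in cells poor in glial RNA. In type Ic the range was -0.83 to -0.22 by stretch left out, -0.29 at a pseudocount of 1 and -0.79 in thinned cells. In type II the range was -1.03 to 0.023, and the sign turned without control stretch 2, with 5 control UMIs left. In type Ib, where CKO was above control by 0.59, the sign held in 16 of 16 alternatives but 1.5-fold was passed in 8, with values between 0.082 and 1.69, the ends being pseudocounts of 1 and 0.01. Micu2 in type II over type I of control was 1.44 at a pseudocount of 0.01 and 0.31 at 1. Micu3 over all neurons ranged from -0.091 to 0.22 by stretch left out and was 0.11 in thinned cells, and Smdt1 ranged from 0.080 to 0.13. The 20 genes at least 1.5-fold higher in CKO became 18 to 55 with a stretch left out, 36 with no minimum mean and 7 at 2-fold. The 19 lower ones became 12 to 48, 44 and 3, and 34 at a mean of 0.2. The causes were not tested, beyond fewer UMIs or genes by construction. For the members over all neurons, Ccdc109b in type Ic and over type Ia, Micu2 in type II and the gene counts, 79 recomputed values moved by less than their error (for counts, 1.5 times) and 29 by more. Of 548 other recomputed values, 513 moved by less than their error, 34 moved by more and 1 turned. Depth limits the values of Mcu, Micu2 and Ccdc109b in type II, which rest on 17 to 132 UMIs in a genotype.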

Other observations

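Other calcium genes also parted the neuron classes. The genes in these paragraphs were picked after their values were seen where the rule for names does not take them, so they are descriptions. Ryr2, a calcium release channel of the endoplasmic reticulum, averaged 1.35 in type Ic and 0.525 in type Ia of CKO, a ratio of 2.49 (2.26 to 2.74), and 1.22 in type Ic and 0.529 in type Ia of control, a ratio of 2.30 (2.09 to 2.54). In type II it was close to absent, with 7 UMIs in CKO and 4 in control. Type Ib lay between, with 0.834 in CKO and 0.621 in control. Vdac1, the outer membrane channel that passes calcium towards the uniporter, ran the other way in control, with 9.49 in type Ic and 12.6 in type Ia.

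The plasma membrane calcium pumps split between neuron types. Atp2b4 averaged 0.540 in type II and 0.00395 in type I of CKO, and 0.529 in type II and 0.0038 in type I of control. Atp2b1 was 1.86 times type I in CKO type II (1.74 to 2.0) and 1.83 times in control (1.69 to 1.97). Atp2b2 was 0.299 times type I in CKO type II (0.273 to 0.327) and 0.261 times in control (0.234 to 0.291). Gpd2, a calcium-sensitive dehydrogenase on the outer face of the inner membrane, was the 1 enzyme of its list that stood at least 1.5-fold higher in control type II, at 0.520 in type II and 0.0277 in type I. In CKO it was 0.362 in type II and 0.0253 in type I, under the mean at which genes were counted.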
